A study of Homo sapiens with 10 samples.

Results

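The septins are GTP-binding proteins of the cytoskeleton, and the genes described here are the 10 family members SEPTIN1, SEPTIN2, SEPTIN3, SEPTIN5, SEPTIN6, SEPTIN7, SEPTIN8, SEPTIN9, SEPTIN10 and SEPTIN11, out of 60574 genes in the count table. They were taken by gene name, and they were proposed with the difference between guides in these libraries already known. That difference is therefore given below as a description. Where a member is placed above or below the threshold of the fit over all genes, this only states how that fit classed it, and it is not a test of the family or of the member. Rows named by a number that reads like a spreadsheet date were not used, and 0 of the 3 such rows read as a day in September, the form that a spreadsheet gives to older septin symbols.

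RNA came from U266, a cell line established from human multiple myeloma, the cancer of plasma cells. All cells carried dCas9-VPR, a Cas9 that does not cut DNA fused to transcriptional activators and delivered by lentivirus. In 5 libraries the cells also carried a guide RNA aimed at the start site of EFNB2 (the gene of ephrin-B2, a ligand of Eph receptors), and in the 5 control libraries a scrambled guide with no target. Both kinds of cell were transduced pools kept under blasticidin and puromycin, and no other treatment was given. Libraries of each guide are lettered A to E. The labels do not say that letters stand for separate cultures, so errors and p-values measure the spread between these libraries, which may be technical. Each guide was in its own pool of cells, so a difference between guides cannot be told apart from a difference between pools. Effects of the guide through EFNB2 and through other targets cannot be told apart either.

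Septins of different sequence groups join side by side into rods, and the rods join end to end into filaments and rings. Within a rod, a member of the SEPTIN2 group, a member of the SEPTIN6 group and SEPTIN7 each hold a set place, and a member of the SEPTIN3 group, usually SEPTIN9, can be added. Members of 1 group can stand in for each other. The filaments lie under the plasma membrane and at the cleavage furrow, where they hold cytokinesis proteins and limit diffusion in the membrane. In blood cells, SEPTIN6 and SEPTIN9 are also known as fusion partners of KMT2A in leukaemia.

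The nucleotide-binding loop shared by the family shows how far the members differ as RNA, which bears on whether their reads could be told apart. The lines give the codons of this loop, the Walker A motif, in capitals (24 bases) with 12 bases on either side, 5′ to 3′, from the GENCODE 29 principal transcript of 7 members chosen to show each sequence group and the nearest relatives of SEPTIN1 and SEPTIN6.
SEPTIN1 (SEPTIN2 group): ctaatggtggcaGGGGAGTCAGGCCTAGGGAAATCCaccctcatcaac
SEPTIN2 (SEPTIN2 group): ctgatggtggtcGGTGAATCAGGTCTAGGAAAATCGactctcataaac
SEPTIN5 (SEPTIN2 group): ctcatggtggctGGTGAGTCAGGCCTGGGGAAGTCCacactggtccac
SEPTIN6 (SEPTIN6 group): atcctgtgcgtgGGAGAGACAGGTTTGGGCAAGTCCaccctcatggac
SEPTIN11 (SEPTIN6 group): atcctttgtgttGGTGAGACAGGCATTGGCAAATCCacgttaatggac
SEPTIN7 (SEPTIN7 group): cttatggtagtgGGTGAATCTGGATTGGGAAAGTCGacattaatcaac
SEPTIN9 (SEPTIN3 group): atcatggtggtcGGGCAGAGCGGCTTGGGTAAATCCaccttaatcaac

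Even in this conserved loop the bases differed between members. SEPTIN1 shared 21 of the 24 capital bases with SEPTIN5, 19 with SEPTIN2 and also with SEPTIN11, and 17 with SEPTIN6. SEPTIN6 shared 19 with SEPTIN11 and also with SEPTIN5, so identity in the loop did not always follow the sequence groups. Over whole coding sequences, base identity was 62.2% to 74.2% for the 10 pairs within a group (median 68.8%) and 49.1% to 62.8% for the 35 pairs between groups (median 53.1%). The nearest pair was SEPTIN6 and SEPTIN11, at 74.2%. SEPTIN1 was nearest to SEPTIN5, at 68.1%. No stretch of 150 bases, the length of 1 sequenced read of a pair, was shared between any member's transcripts and those of another septin gene or septin pseudogene. At 75 bases, SEPTIN10 shared 2.14% of its stretches, SEPTIN7 0.68% and SEPTIN2 0.1%, each with pseudogenes, and the other 7 members shared none.

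Each library held 47268072 to 56513548 counts. Levels are given as CPM, that is counts scaled to a common library total, here with sizes adjusted by the trimmed mean of M-values. EFNB2, the targeted gene, was at 0.955, 1.121, 1.254, 1.496 and 1.206 CPM in libraries A to E of its own guide and at 0.170, 0.136, 0.143, 0.110 and 0.0365 CPM in the controls, so every library fell on the side its label gives. Both A libraries stood apart. Each lay apart from its guide on the second principal component (8.33% of the variance), and each lay nearer to the other guide than its fellows did on the first (61.7%). Septin values without both A libraries are therefore given beside the main ones. The plasma cell markers SDC1 (2121 CPM with the EFNB2 guide, 3015 in controls) and JCHAIN (2042 and 1900 CPM) were abundant, while CD38 (8.03 and 1.78 CPM) and MZB1 (3.54 and 5.57 CPM), the lowest of the 9 plasma cell markers, were not. Of 23 markers of T, myeloid, epithelial, fibroblast, endothelial, neuronal and platelet cells, 6 reached 1 CPM under either guide, and 4 had no count. The 3 neuronal markers summed to 26.25 to 29.04 CPM with the EFNB2 guide and 16.07 to 19.75 CPM in controls, mostly SYT1 and SNAP25. RBFOX3, the remaining neuronal marker, was scarce and lay the other way (0.13 against 0.29 CPM). The 3 fibroblast markers, nearly all COL1A1, summed to 22.61 to 26.87 CPM and 16 to 21.76 CPM, while the scarce DCN was at 0.10 and 0.16 CPM. The part of these markers in the septin differences was not tested. In such bulk libraries, fewer cells that express a gene and less RNA of it per cell cannot be told apart.

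Of the 10 members, 9 passed the filter on low counts and entered the comparison of the guides. The threshold of the fit was an adjusted p of 0.05. By it, SEPTIN1, SEPTIN6 and SEPTIN9 were classed as higher with the EFNB2 guide, SEPTIN2, SEPTIN8 and SEPTIN11 as lower, and SEPTIN3, SEPTIN7 and SEPTIN10 as neither. Over all 17834 genes tested, 45.4% were past this threshold, 22.8% higher and 22.6% lower, and nothing is read from the members' counts beside these shares. The members' median log2 fold change was 0.007, and that of all genes tested was also 0.007. The largest difference was in SEPTIN1, whose absolute log2 fold change was at the 98.4 percentile of all genes tested, followed by SEPTIN6 at the 91.7 percentile.

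**Figure D1:**
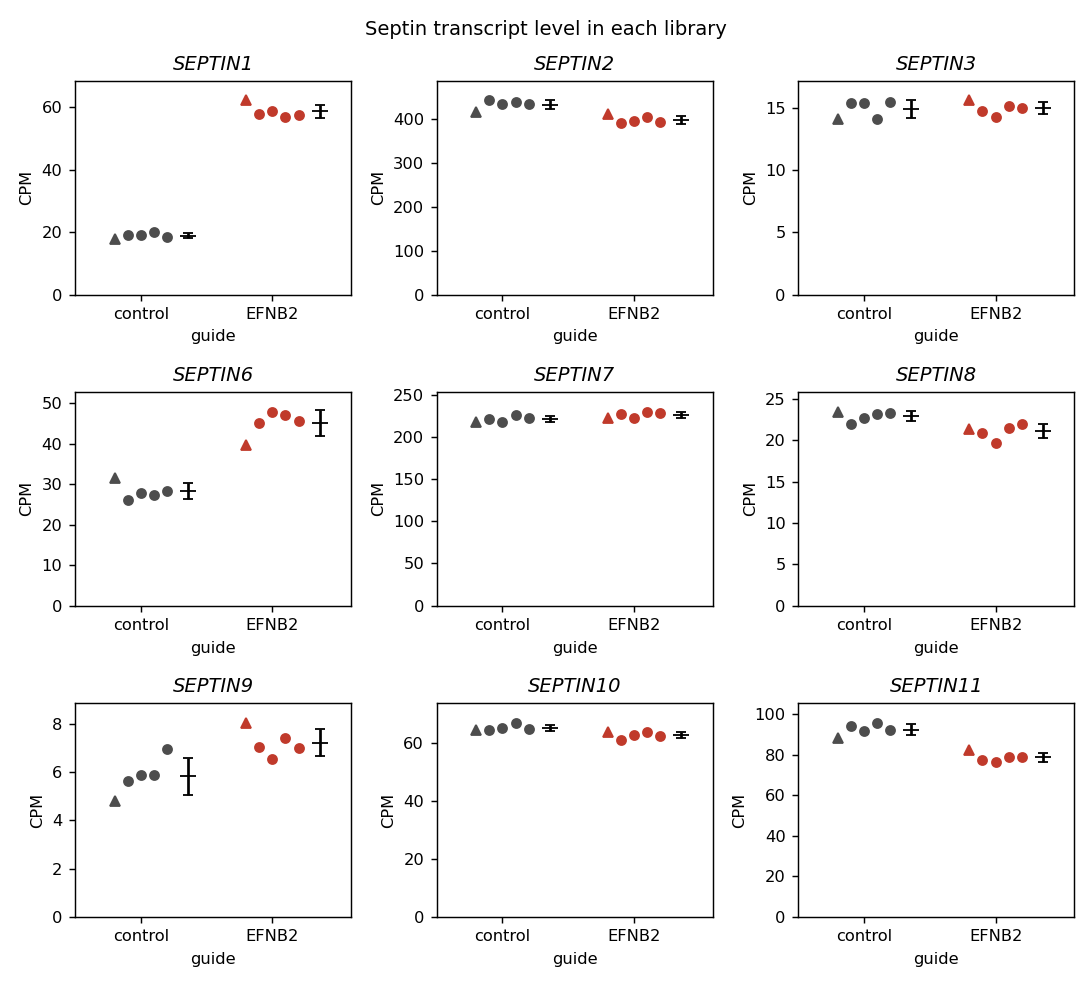
Level of the 9 tested septins in every library, in CPM on axes that start at 0, with control libraries in grey and EFNB2 guide libraries in red. Triangles are the A libraries, circles libraries B to E in order, and black bars the mean ± SD (n = 5). SEPTIN1 and SEPTIN6 lie higher in all 5 EFNB2 guide libraries, while SEPTIN2, SEPTIN10 and SEPTIN11 lie lower by a small step.

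The SEPTIN2 group holds the septins at 1 place in the rod, and its measured members went in opposite directions. SEPTIN1 (chr16:30378133-30395991, minus strand, GRCh38), a septin best known from lymphoid cells, was at 62.3, 58.0, 58.9, 57.0 and 57.5 CPM in libraries A to E of the EFNB2 guide. In the controls it was at 17.8, 19.1, 19.1, 19.9 and 18.5 CPM. The lowest EFNB2 guide library was thus far above the highest control, and the spread within either guide was small. The means were 58.7 ± 2.08 and 18.9 ± 0.767 CPM (SD, n = 5), 3.11-fold apart, with a log2 fold change of 1.64 (SE 0.036). Without both A libraries it was 1.595.

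SEPTIN2 (chr2:241315100-241354027, plus strand), the widely expressed member of the same group, was the most abundant septin under both guides. It was at 411, 389, 394, 404 and 392 CPM with the EFNB2 guide and at 414, 441, 433, 437 and 433 CPM in the controls. The guides did not overlap, but the gap between the highest EFNB2 guide library and the lowest control, both A libraries, was narrow. The log2 fold change was -0.12 (SE 0.025), and -0.14 without both A libraries. In counts, SEPTIN2 had 100899 reads against 116404, while SEPTIN1 had 14900 against 5093.

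SEPTIN5 (chr22:19714464-19724224, plus strand), a septin of neurons and platelets, had 0 counts in all 10 libraries. A count of 0 allows up to 3 counts in a library, 0.0537 to 0.0627 CPM at these depths. In GENCODE 29, 73.0% of the exon bases of SEPTIN5 also belong to a readthrough gene that joins it to GP1BB on the same strand, and GP1BB, a platelet gene, had 0 counts as well. How the authors' counting treated bases shared between genes is not given in the sources used here, and its part in the value of 0 was not tested.

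SEPTIN4, a further member of the SEPTIN2 group outside the 10, was scarce. It had 30, 39, 28, 36 and 27 counts in libraries A to E of the EFNB2 guide and 21, 14, 12, 12 and 19 in the controls. The guides did not overlap, and it was higher with the EFNB2 guide (0.632 ± 0.105 against 0.290 ± 0.0798 CPM, SD, n = 5, log2 fold change 1.12, SE 0.21, adjusted p = 0.000544, edgeR's quasi-likelihood test). The log2 fold change of SEPTIN4 was 1.30 without both A libraries, and 0.33 with the deposited normalized values, where adding 1 before the log understates the change of low genes. SEPTIN12, of the SEPTIN3 group, had 17 counts over the EFNB2 guide libraries and 6 over the controls, and SEPTIN14, of the SEPTIN6 group, had 0. Neither was tested.

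In the SEPTIN6 group, SEPTIN6 was higher with the EFNB2 guide, and the means of the other members were lower. SEPTIN6 (chrX:119615724-119693370, minus strand) was at 39.7, 45.2, 48.0, 47.1 and 45.7 CPM in libraries A to E of the EFNB2 guide. The controls were at 31.7, 26.2, 27.9, 27.4 and 28.4 CPM. The guides did not overlap, and in each guide the A library was the one nearest to the other guide. The means were 45.1 ± 3.21 and 28.3 ± 2.06 CPM (SD, n = 5), 1.59-fold apart, with a log2 fold change of 0.67 (SE 0.054). Without both A libraries it was 0.76.

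SEPTIN11 (chr4:76949703-77040384, plus strand), the closest relative of SEPTIN6 in sequence, differed in the other direction. It was at 82.2, 77.2, 76.4, 78.6 and 78.7 CPM with the EFNB2 guide and at 88.2, 93.9, 91.8, 95.8 and 92.1 CPM in the controls. All 5 EFNB2 guide libraries were below all controls, and again the A library of each guide was nearest to the other. The log2 fold change was -0.23 (SE 0.0285), a level lower by 14.8%, and -0.27 without both A libraries.

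SEPTIN8 (chr5:132750817-132807241, minus strand) was at 19.73 to 22.02 CPM with the EFNB2 guide and 21.97 to 23.48 CPM in the controls, and the guides just overlapped. Its log2 fold change was -0.12 (SE 0.0375), and it ran from -0.14 to -0.09 over 19 alternatives. The fit classed SEPTIN8 as neither higher nor lower when library B or C of the EFNB2 guide or library E of the controls was left out (-0.11, -0.09 and -0.11). SEPTIN10 (chr2:109542982-109614206, minus strand) was at 61.0 to 63.9 CPM and 64.4 to 67.0 CPM. Its guides did not overlap, and the log2 fold change was -0.06 (SE 0.025). It was -0.065 without both A libraries and -0.08 with the deposited normalized values, and the fit classed it as lower in these 2 of 19 alternatives.

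SEPTIN7 (chr7:35800932-35907105, plus strand), the only member of its group and a part of most rods, was the second most abundant septin and was nearly level. It was at 222 to 230 CPM with the EFNB2 guide and 217 to 226 CPM in the controls, with a log2 fold change of 0.03 (SE 0.022). Adding the counts of the SEPTIN7 pseudogenes (8764 over 10 libraries, beside 116928 of SEPTIN7) gave 0.05. Of 21 septin pseudogenes in the table, 11 had any count and 4 were tested. The 2 past the threshold, named after their values were seen, were SEPTIN7P2 (17.8 ± 1.21 against 14.6 ± 1.95 CPM, log2 fold change 0.29, SE 0.076) and SEPTIN14P4 (0.49, SE 0.19), with adjusted p = 0.00587 and adjusted p = 0.0451 in edgeR's quasi-likelihood test. Both overlapped between guides.

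In the SEPTIN3 group, SEPTIN9 (chr17:77280569-77500596, plus strand), which can be added to the rod and has many transcript forms, was at 8.045, 7.035, 6.542, 7.418 and 6.998 CPM in libraries A to E of the EFNB2 guide. The controls were at 4.78, 5.64, 5.88, 5.86 and 6.94 CPM. The guides overlapped, because library E of the controls was above library C of those with the EFNB2 guide. In SEPTIN9 the log2 fold change came to 0.31 (SE 0.087), and without both A libraries it was 0.20. SEPTIN3 (chr22:41969475-41998221, plus strand), a septin best known from neurons, was at 14.3 to 15.6 CPM and 14.1 to 15.5 CPM, with a log2 fold change of 0.007 (SE 0.044), and its sign turned in 5 of 19 alternatives.

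**Figure D2:**
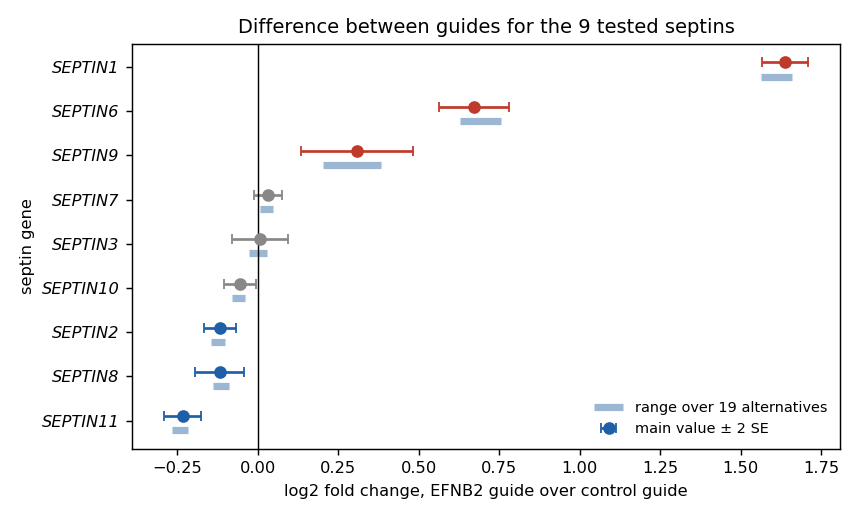
Log2 fold change of the 9 tested septins, EFNB2 guide over control guide, as points with bars of 2 SE (red higher and blue lower past the threshold, grey not past it). Pale bands give the range over 19 alternative analyses, which was 1.56 to 1.66 for SEPTIN1, 0.63 to 0.76 for SEPTIN6 and -0.27 to -0.22 for SEPTIN11.

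Counting 9 members by overlap, 2 lay above and 3 below the controls in every library and 4 overlapped. Over all genes tested, 30.3% did not overlap, 15% above and 15.2% below. SEPTIN1 and SEPTIN6, of the 9 members those furthest above the controls, lie on different chromosomes. The 10 tested genes nearest to SEPTIN1 were taken as 5 that start at lower and 5 that start at higher coordinates. Of these 10, 1 was higher (TBC1D10B, log2 fold change 0.13), 1 was lower (SMG1P5, -0.30), and the median was -0.05. Among those nearest to SEPTIN6, 0 were higher, 4 were lower (UBE2A, SLC25A43, RPL39 and RNF113A), and the median was -0.06. Shares called over all genes tested were 22.8% higher and 22.6% lower, and nothing is read from these small counts. These neighbours were chosen by position after the septin values were seen. Exon bases in the overlaps given here are those of all transcripts of a gene. ZNF48 is among the 10 genes nearest to SEPTIN1 although it overlaps it, with 9.1% of the exon bases of SEPTIN1 on the opposite strand. ZNF48 was at 19.5 and 19.3 CPM (log2 fold change 0.01, adjusted p = 0.808, edgeR's quasi-likelihood test). The kit kept strand, but the strand setting of the counting is not given in the sources used here. On the same strand, 8.2% of the exon bases of SEPTIN1 also belong to a further GENCODE gene model, which counting by strand would not separate. Overlaps on the opposite strand with more than 3% of a member's exon bases were also SEPTIN8 with CCNI2 (14.9% of exon bases), SEPTIN9 with an antisense transcript (6.7%) and SEPTIN2 with HDLBP (3.1%).

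Levels of different septins can be compared only per length, so CPM were divided by the kilobases of exon in protein-coding transcripts. In the controls the order was SEPTIN2 (86.2 CPM per kilobase), SEPTIN7 (48.2), SEPTIN10 (16.4), SEPTIN1 (11.9), SEPTIN11 (10.9), SEPTIN6 (4.95), SEPTIN8 (3.19), SEPTIN3 (2.19) and SEPTIN9 (0.533), with SEPTIN5 at 0. This order is per exon length. With the EFNB2 guide, SEPTIN1 (36.9 CPM per kilobase) stood above SEPTIN10 (15.8), and the order was otherwise the same. Neighbours in these orders did not overlap over libraries, except SEPTIN1 and SEPTIN11 in the controls (11.2 to 12.5 and 10.4 to 11.3 CPM per kilobase). Per kilobase of coding sequence the place of SEPTIN1 was lower. It was at 15.2 in the controls, below SEPTIN6 (21.7) and beside SEPTIN8 (15.8), and at 47.3 with the EFNB2 guide, below SEPTIN11 (61.1) and beside SEPTIN10 (48.6), whose libraries it overlapped.

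As a share of the summed septin level per kilobase of exon, SEPTIN1 went from 6.43% ± 0.164 in the controls to 18.0% ± 0.516 with the EFNB2 guide (SD, n = 5). SEPTIN2 went from 46.7% ± 0.480 to 38.9% ± 0.393. Both belong to the SEPTIN2 group, whose share was 52.4% to 53.8% in the controls and 56.3% to 58.2% with the EFNB2 guide, with no overlap. The SEPTIN7 share was 25.8% to 26.4% and 23.2% to 24.6%.

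The choice of length decided the difference in group shares. Per kilobase of coding sequence, SEPTIN1 went from 2.00% to 6.19%, and the SEPTIN2 group held 53.8% to 55.1% in the controls and 53.7% to 55.3% with the EFNB2 guide, ranges that overlap almost wholly. The SEPTIN7 share then also overlapped, at 21.9% to 22.5% and 21.8% to 23.0%. SEPTIN1 has 1592 bases of exon in protein-coding transcripts and 1242 of coding sequence, while SEPTIN2 has 5009 and 1083. This exon length thus gives SEPTIN1 more weight beside SEPTIN2. Over the exons of all transcripts, SEPTIN1 has 4217 bases and SEPTIN2 has 7378, and levels over these lengths were not computed. The summed level was 184 ± 3.25 and 204 ± 2.67 CPM per kilobase of exon, and 759 ± 13.4 and 764 ± 10.4 CPM per kilobase of coding sequence. Which transcripts of each gene were present was not measured in the gene counts.

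**Figure D3:**
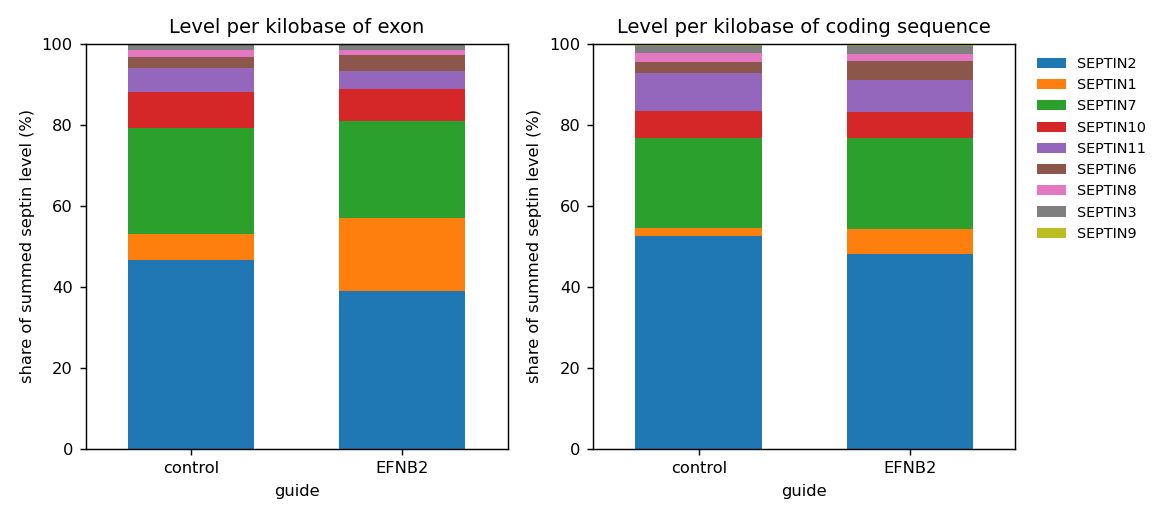
Share of the summed septin level held by each septin (mean over 5 libraries per guide, in percent), with levels per kilobase of exon on the left and of coding sequence on the right. The SEPTIN1 share rises from 6.43% to 18.0% on the left and from 2.00% to 6.19% on the right, beside a smaller SEPTIN2 share in both.

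Within a guide, the septins differed in how much they varied between libraries. The SD of log2 CPM was smallest for SEPTIN7 (0.0236 with the EFNB2 guide and 0.0247 in the controls) and SEPTIN10 (0.0269 and 0.0235), and largest for SEPTIN9 (0.111 and 0.190) and SEPTIN6 (0.106 and 0.102). SEPTIN9 was also the tested member with the lowest level. In several septins the A library was the highest or lowest of its guide, and not in 1 direction. The largest deviations of SEPTIN8 and SEPTIN10 were in other libraries. The A libraries lay toward the other guide for SEPTIN2, SEPTIN6 and SEPTIN11, but away from it for SEPTIN1 and SEPTIN9. For SEPTIN1 and SEPTIN9, library A was the highest of the EFNB2 guide and the lowest of the controls.

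The deviations of SEPTIN1 from its guide mean over 10 libraries, which share library and depth with every other gene, were most like those of CAMSAP2, a microtubule minus-end protein (Pearson's r 0.979), RNF34, a ubiquitin ligase (0.974), SERINC3, a membrane protein (0.962), SPART, known as spartin (0.962), and ATL3, an endoplasmic reticulum GTPase (0.958), out of 11367 genes compared. Without both A libraries these r were 0.936, 0.954, 0.862, 0.882 and 0.902 over 8 libraries. The genes were picked for the highest r over all 10 libraries, which include these 8. Their r over 8 libraries is therefore not a separate check. Among septins, SEPTIN11 had an r of 0.839 with SEPTIN1 and SEPTIN6 of -0.826, and without both A libraries these were 0.392 and -0.179. Over those 8 libraries the values furthest from 0 were those of SEPTIN3 (-0.932) and SEPTIN9 (-0.721), which over all 10 were 0.188 and 0.437.

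Septins work with proteins that bind them or act at the same places, and 4 lists of such genes were read from the same fit. The lists were chosen with earlier results of these data known, so their shares and p-values are given as a description. Apart from CDC42, ANLN and the Borg genes, the genes named from a list were picked by their p in this fit. CDC42, the GTPase that acts on septins through the Borg proteins, was lower with the EFNB2 guide (310 ± 9.70 against 341 ± 14.0 CPM, SD, n = 5, log2 fold change -0.14, adjusted p = 0.00173, edgeR's quasi-likelihood test). The Borg protein CDC42EP3 was higher (150 ± 1.27 against 133 ± 5.43 CPM, 0.17, adjusted p = 0.000152), and CDC42EP4 was at 1.16 and 1.03 CPM and not past the threshold (0.17, adjusted p = 0.284). Of the 6 genes in this list only these 3 were expressed enough to be tested.

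Genes of the contractile ring and the central spindle, where septins are recruited in cell division, were mostly higher. Of 22 tested, 16 were higher, 2 lower and 4 not past the threshold, a share of 81.8% called beside 45.4% over all genes tested, with a median log2 fold change of 0.357 beside 0.007. ANLN, the anillin scaffold that links septins to actin and myosin, was at 54.9, 63.4, 62.4, 61.7 and 64.9 CPM in libraries A to E of the EFNB2 guide and at 49.3, 43.0, 39.8, 43.3 and 42.5 CPM in the controls. The guides did not overlap (log2 fold change 0.50, SE 0.053, adjusted p = 2.02e-06, edgeR's quasi-likelihood test), and as for SEPTIN6 the A libraries lay toward each other. The other named genes that were higher were CIT, the midbody kinase citron (83.7 ± 6.42 against 42.3 ± 3.10 CPM, 0.98), KIF23, a kinesin of the central spindle (0.75), and PLK1, a mitotic kinase (0.45). The 2 lower genes are not reported here.

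In the midbody and abscission list and in the membrane list, the share past the threshold was near or under the 45.4% of all genes tested. Of 16 abscission genes, 3 were higher, 4 lower and 9 not past the threshold (43.8% called, median -0.005). The higher ones were the midbody genes KIF14 (0.53), CEP55 (0.35) and KIF20B (0.35), and the lower ones included CHMP4B, of the membrane-scission machinery (-0.18), VPS4B, an ATPase that acts on it (-0.14), and SPAST, which severs microtubules (-0.21). Of 13 genes of the exocyst, which tethers vesicles to the membrane, and of store-operated calcium entry, 3 were higher, 2 lower and 8 not past it (38.5% called, median 0.007). The exocyst genes EXOC8 (0.12) and EXOC3 (0.10) and the calcium channel gene ORAI1 (0.16) were higher, and EXOC4 (-0.23) and EXOC5 (-0.10) were lower. EXOC5 lost its call when any library but an A library was left out (-0.10 to -0.07), and EXOC3 did so without library B, C or D of the EFNB2 guide or any control library but A (0.08 to 0.12).

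**Figure D4:**
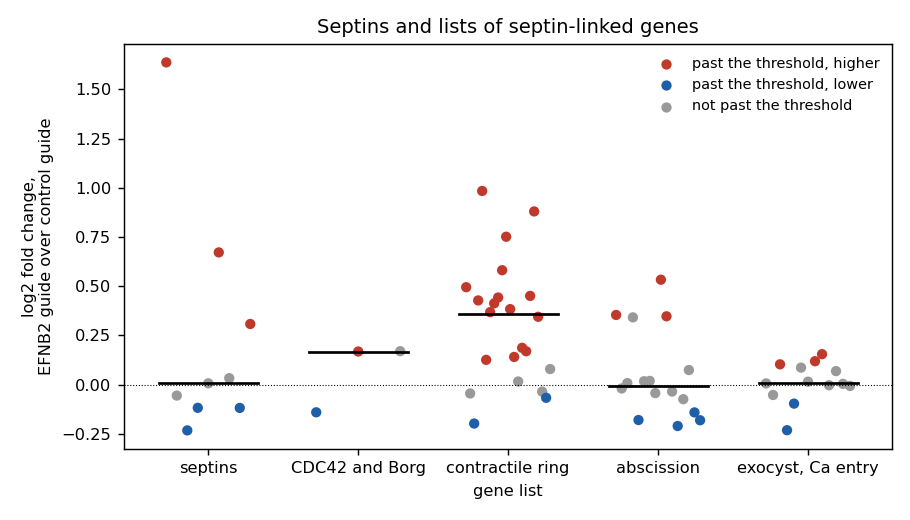
Log2 fold change, EFNB2 guide over control guide, of each tested gene in the septin family and in 4 lists of septin-linked genes (red higher and blue lower past the threshold, grey not past it), with black lines at the list medians. The contractile ring list has 16 of 22 genes higher and a median of 0.357, while the septin median is 0.007.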

How the data were processed

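The authors deposited raw counts of reads per gene, whole numbers with no normalization, and all main results use them. Their second deposited table holds a normalized signal, found to be the count plus 0.0001 multiplied by 1 constant per library, and served as an alternative. STAR 2.27a, Partek, DESeq2 and the build GRCh38 are named in the submitters' processing notes. The sources used here do not give the annotation or strand setting of the counting. Date-like rows held at most 0.00007% of counts.

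The members and gene lists were chosen with earlier results of these data known. Genes passing filterByExpr were compared with edgeR 4.0.16 (R 4.3.3) by the quasi-likelihood test, with TMM scaling, a model of guide alone, and p-values adjusted by Benjamini-Hochberg over 17834 genes. SE is the absolute log2 fold change over the square root of F. Named genes were the septins, EFNB2, CDC42, ANLN, tested CDC42EP genes, from each list up to 3 higher and 3 lower genes with the smallest p among those averaging 1 or more in log2 CPM, and the 5 genes most like SEPTIN1. Some genes that this rule gave are not reported here. Positions, lengths and coding bases came from GENCODE 29, in which 10 of 10 members matched under their older symbols. Coding bases were paired through an alignment of the encoded residues (Biopython 1.88), and protein tables were not used here. Only the fit was tested on simulated counts, with far fewer genes changed than were called here, and the other steps were not simulated.

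Alternatives were RLE scaling, library totals, no filter, a filter of 1 CPM in 5 libraries, DESeq2 1.42.0, limma-voom (limma 3.58.1), the deposited normalized signal on the log2(value + 1) scale, the replicate letter as a block, and leaving out each library or both A libraries. Same-letter libraries did not deviate together, so the letters were not taken as pairs.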

Additional observations from a re-analysis of the deposited data

Results flagged for a closer look

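Within each guide, the highest and lowest of 5 libraries were compared with the others for the septins and the named genes tested, except the 5 most like SEPTIN1. The same was done for SEPTIN7P2 and for the share of each sequence group. Shares within a library are tied to each other, so the groups compared were not independent. Of 68 groups of 5, 7 held a library whose gap to the others exceeded 0.71 of the group's range, where chance gives about 1 in 20 groups. None of the 7 was in a septin member, and 6 were in an A library.

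Among septin-related transcripts, the pseudogene SEPTIN7P2 was at 17.9 CPM in library A of the controls, against 13.3 to 14.6 CPM in the other controls. Of the septin-binding genes, CDC42EP3 was at 124 CPM in library A of the controls, against 134 to 138 CPM. In library A of the EFNB2 guide, KIF23 was at 131 CPM against 157 to 161 CPM, PLK1 at 190 CPM against 214 to 221 CPM, and KIF14 at 39.7 CPM against 46.7 to 49.2 CPM. PLK1 also stood apart in library A of the controls, at 168 CPM against 151 to 153 CPM. SPAST was at 58.2 CPM in library D of the EFNB2 guide, against 60.5 to 61.4 CPM. Of the 6 values in A libraries, all but that of CDC42EP3 lay toward the other guide.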

How the results depend on the processing

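Over 19 alternatives, the log2 fold change ran from 1.562 to 1.659 for SEPTIN1, 0.629 to 0.757 for SEPTIN6, 0.202 to 0.383 for SEPTIN9, -0.265 to -0.216 for SEPTIN11 and -0.144 to -0.101 for SEPTIN2. That of SEPTIN3 turned to -0.017 with the deposited normalized signal, -0.027 without both A libraries, and ran from -0.013 (with -0.008 and -0.005 as the other negative values) to 0.028 when 1 library was left out. The contractile ring genes called lower numbered 2, but 1 with library totals, with no filter and with the replicate block, 4 without both A libraries, and 1 to 2 when 1 library was left out. The exocyst and calcium entry genes called lower numbered 2, but 1 with library totals and with the replicate block, 4 without both A libraries, and 1 to 2 when 1 library was left out. With no filter 2 Borg list genes were higher in place of 1, and with the deposited normalized signal 7 abscission genes were lower in place of 4. Among named genes of the lists, EXOC3 and EXOC5 lost their calls in several alternatives; the cause was not tested.

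No numbered pairing held. The correlation of deviations between same-letter libraries ran from -0.237 (A) to -0.003, and 0 of 5 libraries correlated best with their own letter. With the replicate block, 3425 genes were higher and 3337 lower, against 4072 and 4026. The share of higher genes among calls was 50.3%, with 49.8% under RLE scaling and 54.2% under library totals. It was 43.1% with the deposited normalized signal, where the scale and the fit also differed. SEPTIN12 and SEPTIN14 had too few counts for a comparison, as did SEPTIN5, for which the part of depth and of the shared exon bases was not tested.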
